A study of Mus musculus with 6 samples.

Results

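The genes described here are 9 genes of retinoid binding and retinoic acid response, of 23951 genes in the expression table: the retinoic acid binding proteins Crabp1 and Crabp2, the nuclear receptors Rara, Rarb, Rarg and Rxra, the retinoic acid hydroxylase Cyp26b1, the retinol uptake receptor Stra6 and the retinaldehyde dehydrogenase Aldh1a3. They were chosen by symbol because Crabp2 was much higher in the melanoma line B16-F1R2 than in B16-F1, so the values of these genes in that comparison chose them and are given below as a description, without a test. The other comparisons share libraries with it, since each uses either the B16-F1 or the B16-F1R2 libraries.

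Retinoic acid is made from vitamin A. Retinol enters cells, in part through STRA6, alcohol and retinol dehydrogenases oxidize it to retinaldehyde, and retinaldehyde dehydrogenases such as ALDH1A3 complete the conversion. CRABP2 carries retinoic acid to the nucleus and hands it to the retinoic acid receptors, which bind DNA together with retinoid X receptors, while CRABP1 keeps retinoic acid in the cytoplasm and CYP26 enzymes break it down. FABP5 delivers the same ligand to another nuclear receptor, PPAR delta. In melanoma cells retinoic acid is known for slowing growth and for promoting pigmentation and differentiation.

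RNA sequencing covered 3 untreated mouse melanoma cell lines, each in 2 libraries. B16-F1 is a line of low metastatic potential obtained from a cell bank, B16-F1R2 was derived from a lymph node metastasis, and B16-F1R2L came from a metastasis in the lung that itself derived from a lymph node metastasis. Both metastatic lines were supplied by 1 outside laboratory, so the effects of line and of supplier cannot be told apart, and each metastatic state is represented by 1 line. Whether the 2 libraries of each line stem from separate cultures is not given in the sources used here, so p-values measure the spread between libraries, which may be technical.

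The unit throughout is FPKM, the read count of a gene scaled by transcript length and library depth, so that levels of different genes can be set side by side. The lowest values of genes with 1 annotated coding transcript put the depth at an estimated 12300000 to 14400000 reads per library. The estimate used only values within a range set by hand and depends on that range, as do the read numbers below. All 7 melanocyte markers reached 1 FPKM, whereas the fibroblast markers Dcn, Lum and Thy1, the leukocyte markers Ptprc, Itgam, Emr1 and Cd3e and the endothelial markers Cdh5, Kdr and Lyve1 were listed at 0 in every library, and none of 6 epithelial markers reached 1 FPKM in 2 libraries. Others of these lists were present: Col1a1 of the fibroblast list was at 16.8 and 17.1 FPKM in B16-F1R2 against 0.226 and 0.311 FPKM in B16-F1, Cd68 of the leukocyte list lay between 0.983 and 2.67 FPKM over the 6 libraries, Prox1 of the endothelial list was at 1.66 and 1.63 FPKM in B16-F1 and lower in the metastatic lines, and Pecam1, listed at 0 in B16-F1, was at 0.758 and 0.752 FPKM in B16-F1R2 and 1.09 and 1.26 FPKM in B16-F1R2L. In such bulk RNA, fewer cells that express a gene and less RNA per cell cannot be told apart. Of the 9 genes, 6 passed the filter of at least 1 FPKM in at least 2 libraries and were tested, and Crabp1, Stra6 and Aldh1a3 did not.

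Crabp2 lies at chr3:87752588-87757298 on the plus strand of NCBIM37 (mm9) and has 4 exons in a transcript of 931 bases. Its level was 1.82 and 2.08 FPKM in the B16-F1 libraries, 121 and 113 FPKM in the B16-F1R2 libraries and 98.2 and 89.5 FPKM in the B16-F1R2L libraries. Both metastatic lines were far above B16-F1, with no overlap. At the estimated depth these levels stood for about 21 to 1500 reads per library.

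The mean level of Crabp2 was 1.95 ± 0.185 FPKM (SD, n = 2) in B16-F1 and 117 ± 5.88 FPKM (SD, n = 2) in B16-F1R2, a ratio of 59.8 and a log2 difference of 5.83 ± 0.08 (SE). Ranked by FPKM among all 23951 genes, Crabp2 moved from places 9976 and 9796 in the B16-F1 libraries to places 827 and 844 in the B16-F1R2 libraries. The reason for the choice of genes does not name the line from the lung metastasis, but earlier results of these data were known. That line held 93.8 ± 6.13 FPKM (SD, n = 2) and also stood far above B16-F1. That difference was 5.52 on the log2(FPKM + 0.1) scale (95% confidence interval 5.32 to 5.72, adjusted p = 1.83e-07, limma). The B16-F1 values in it are among those for which the gene was chosen, so the test is not independent of the choice.

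B16-F1R2L was lower than B16-F1R2 in Crabp2 by a small margin, with a log2 difference of -0.31 (95% confidence interval -0.51 to -0.12). The 2 lines' libraries did not overlap. Because the B16-F1R2 values are among those for which the gene was chosen, the limma call here (adjusted p = 0.0395) is not independent of the choice. It was lost when any of their 4 libraries was left out, with adjusted p between 0.0577 and 0.186, and it was lost under 8 of the 16 alternatives.

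**Figure D1:**
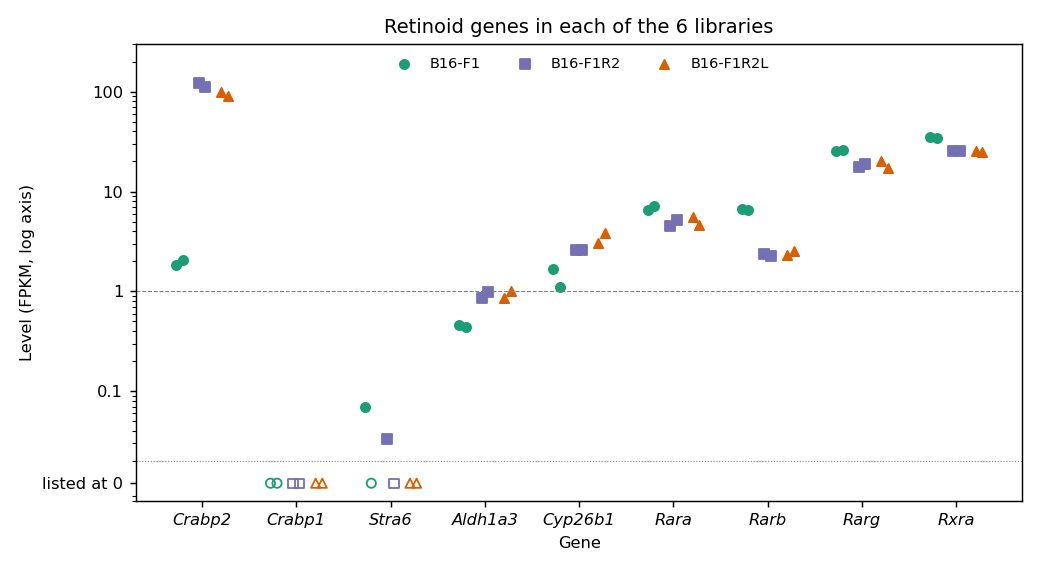
Level in FPKM (log axis) of the 9 retinoid genes, with 1 point per library, circles for B16-F1, squares for B16-F1R2 and triangles for B16-F1R2L; open symbols at the bottom are libraries in which the gene was listed at 0, and the dashed line marks 1 FPKM. Crabp2 rises from about 2 FPKM in B16-F1 to between 89.5 and 121 FPKM in the other lines, while the 4 receptors lie lower there than in B16-F1.

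The paralog Crabp1 was not detected. The gene, at chr9:54612555-54620917 on the plus strand (mm9), was listed at 0 in all 6 libraries. The coding sequences of the 2 genes are 70.8% identical in alignment. None of the 882 stretches of 50 bases in the Crabp2 transcript, the length of 1 read, occurs exactly in a coding transcript of another gene. The closest 50 coding bases of the pair are shown because they are where a read could most easily be assigned to the wrong gene. Capitals mark the 5 bases that differ, in coding bases 151 to 200 of both, whereas the alignment allowed 2 mismatches.

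Crabp1: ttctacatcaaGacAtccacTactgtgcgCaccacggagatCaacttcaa
Crabp2: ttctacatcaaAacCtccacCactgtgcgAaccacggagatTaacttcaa

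The genes around Crabp2 differed far less than Crabp2 did. Among the 5 nearest tested genes on either side, chosen after the Crabp2 values were known, the log2 difference between B16-F1R2 and B16-F1 ranged from -0.44 to 1.10, with a median of -0.04, against 5.83 for Crabp2. Of these 10 genes, 2 were higher and 2 were lower by the test, where 28.2% of all tested genes were higher and 27.2% were lower. The highest was Nes, the intermediate filament protein nestin, which starts 22.4 kb downstream of the Crabp2 start. It was at 16.4 and 16.1 FPKM in B16-F1, 34.8 and 35.1 FPKM in B16-F1R2, and 33.8 and 29.8 FPKM in B16-F1R2L.

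**Figure D2:**
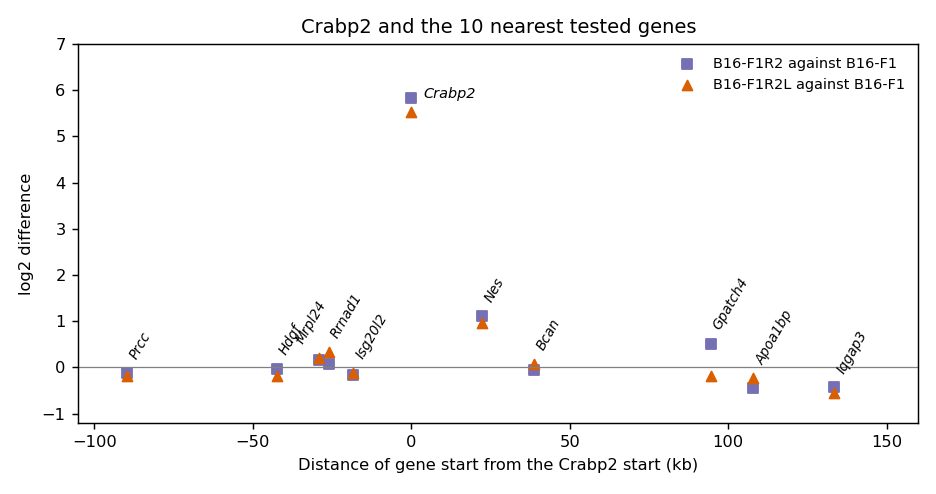
Log2 difference from B16-F1 on the log2(FPKM + 0.1) scale (vertical axis) of Crabp2 and the 10 nearest tested genes, against the distance of each gene start from the Crabp2 start in kb (horizontal axis); squares are B16-F1R2 and triangles B16-F1R2L. Crabp2 stands at 5.83 and 5.52, and the highest neighbour is Nes, at 1.10 in B16-F1R2.

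The genes named here for a profile across the libraries most like that of Crabp2 were at or below 0.506 FPKM in B16-F1. The likeness was measured as the root mean square difference between the centred log2(FPKM + 0.1) values over the 6 libraries. By this measure Apobec2 differed by 0.149, F2 by 0.156, Inpp5d by 0.164 and 2310040G24Rik by 0.165. Apobec2, a member of the APOBEC family of polynucleotide deaminases, was at 0.405 and 0.506 FPKM in B16-F1, 29.1 and 26.03 FPKM in B16-F1R2, and 26.8 and 28.5 FPKM in B16-F1R2L. The other 3 lay at or below 0.0170 FPKM in B16-F1, where F2 and 2310040G24Rik were listed at 0, and between 3.55 and 5.87 FPKM in the metastatic lines. With B16-F1 at or near 0, the log2 differences of these 3 genes, and so their likeness to Crabp2, depend on the pseudocount of 0.1, and no other pseudocount was tried for the likeness.

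The other route for cytoplasmic retinoic acid carried more RNA in every library. Fabp5, which hands retinoic acid and fatty acids to PPAR delta, was at 526 and 503 FPKM in B16-F1, 898 and 854 FPKM in B16-F1R2, and 1098 and 1107 FPKM in B16-F1R2L. Its level rose in both metastatic lines, with a log2 difference of 0.77 in B16-F1R2 (adjusted p = 5.99e-05, limma) and 1.10 in B16-F1R2L (adjusted p = 1.36e-05, limma). Since Crabp2 differed far more, the ratio of Fabp5 to Crabp2, a quantity chosen after the values were seen, was 289 and 241 for the B16-F1 libraries, 7.43 and 7.58 for those of B16-F1R2, and 11.2 and 12.4 for those of B16-F1R2L. Fabp5 thus had the higher level throughout, by a smaller factor in the metastatic lines.

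PPAR delta itself, encoded by Ppard, went the other way from Fabp5. It was at 28.9 and 30.5 FPKM in B16-F1, 13.2 and 13.5 FPKM in B16-F1R2, and 16.01 and 15.6 FPKM in B16-F1R2L. It fell by 1.15 on the log2 scale in B16-F1R2 (adjusted p = 1.44e-05, limma) and by 0.91 in B16-F1R2L (adjusted p = 3.61e-05, limma). Of 5 listed genes known to respond to PPAR delta, 3 were tested, and Plin2, a lipid droplet protein, was higher in both metastatic lines. Angptl4, an inhibitor of lipoprotein lipase that passed the filter through the metastatic lines alone, was listed at 0 in both B16-F1 libraries and reached 1.32 and 0.975 FPKM in B16-F1R2 and 1.902 and 2.76 FPKM in B16-F1R2L. Cpt1a, which admits fatty acids to mitochondria, was lower in B16-F1R2 by the test, with a log2 difference of -0.25 (adjusted p = 0.0128, limma), and its call was lost without either B16-F1 library (adjusted p 0.0695 and 0.0578) or without B16-F1R2 replicate 1 (0.0689). In B16-F1R2L its log2 difference from B16-F1 was 0.07 (adjusted p = 0.386, limma).

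The receptors that CRABP2 serves were all lower in the metastatic lines, Rarb most. Rarb, the receptor whose own gene retinoic acid induces through an element in its promoter, was at 6.61 and 6.47 FPKM in B16-F1, 2.36 and 2.29 FPKM in B16-F1R2, and 2.31 and 2.55 FPKM in B16-F1R2L. B16-F1 lay above both other lines without overlap, and the metastatic lines overlapped each other. The level in B16-F1R2 was 0.355 times that in B16-F1, a log2 difference of -1.46 ± 0.10 (SE). Against B16-F1, the B16-F1R2L libraries fell by 1.39 on the log2 scale (95% confidence interval -1.63 to -1.16, adjusted p = 7.28e-05, limma).

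Rarg, the receptor with most RNA of the 3, was at 25.4 and 26.3 FPKM in B16-F1, 17.6 and 18.9 FPKM in B16-F1R2, and 20.1 and 17.3 FPKM in B16-F1R2L. It differed by -0.50 ± 0.08 (SE) on the log2 scale in B16-F1R2, and in B16-F1R2L it fell by 0.47 (adjusted p = 0.0036, limma). Rara, the receptor found in most tissues, was at 6.59 and 7.23 FPKM in B16-F1, 4.56 and 5.12 FPKM in B16-F1R2, and 5.57 and 4.59 FPKM in B16-F1R2L. Its libraries did not overlap between B16-F1 and either other line, and the log2 difference was -0.51 ± 0.12 (SE) in B16-F1R2 and -0.44 in B16-F1R2L (adjusted p = 0.0203, limma). The call on Rara was lost without B16-F1 replicate 2 (adjusted p = 0.111), without B16-F1R2L replicate 2 (0.0939) and after rescaling each library to the same sum (0.0594).

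Rxra, the retinoid X receptor alpha that pairs with the retinoic acid receptors and with PPAR delta on DNA, was at 34.8 and 34.4 FPKM in B16-F1, 25.4 and 25.7 FPKM in B16-F1R2, and 25.5 and 24.6 FPKM in B16-F1R2L. The replicates lay close together and B16-F1 stood apart from the other lines. The log2 difference was -0.44 ± 0.04 (SE) in B16-F1R2, and in B16-F1R2L it was -0.46 (95% confidence interval -0.57 to -0.36, adjusted p = 2.81e-04, limma). Between B16-F1R2L and B16-F1R2 none of the 4 receptors passed the test, with log2 differences of 0.06 for Rara (95% confidence interval -0.23 to 0.35), 0.06 for Rarb (-0.18 to 0.30), 0.03 for Rarg (-0.17 to 0.23) and -0.03 for Rxra (-0.14 to 0.08). The signs of these 4 values turned under other scalings or without some libraries.

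**Figure D3:**
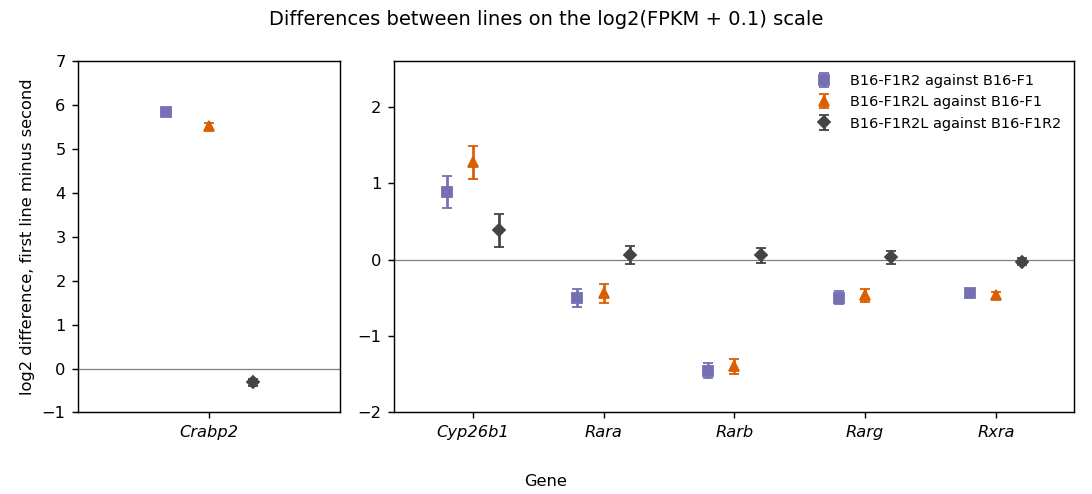
Log2 difference between lines, first line minus second, on the log2(FPKM + 0.1) scale for the 6 tested genes, with Crabp2 in a panel of its own scale; error bars are the standard error from the fit over all 6 libraries, squares compare B16-F1R2 with B16-F1, triangles B16-F1R2L with B16-F1 and diamonds B16-F1R2L with B16-F1R2. Crabp2 and Cyp26b1 lie above 0 and the 4 receptors below 0 in both comparisons with B16-F1.

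Summed over Rara, Rarb and Rarg, the level of retinoic acid receptors was 38.6 and 40.02 FPKM in B16-F1, 24.6 and 26.3 FPKM in B16-F1R2, and 28.0 and 24.4 FPKM in B16-F1R2L. This sum and the shares within it were chosen after the values were seen and were not tested. Rarb made up 17.1% and 16.2% of it for the B16-F1 libraries, 9.61% and 8.68% for those of B16-F1R2, and 8.26% and 10.4% for those of B16-F1R2L, so its share was smaller in every library of the metastatic lines. Rarg made up 65.8% in each B16-F1 library and 70.8% to 71.9% in the others. The ratio of Crabp2 to the summed receptors was 0.0472 and 0.0520 for the B16-F1 libraries, 4.92 and 4.27 for those of B16-F1R2, and 3.50 and 3.66 for those of B16-F1R2L. There were thus fewer FPKM of the carrier than of the receptors in B16-F1 and more in the other 2 lines.

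**Figure D4:**
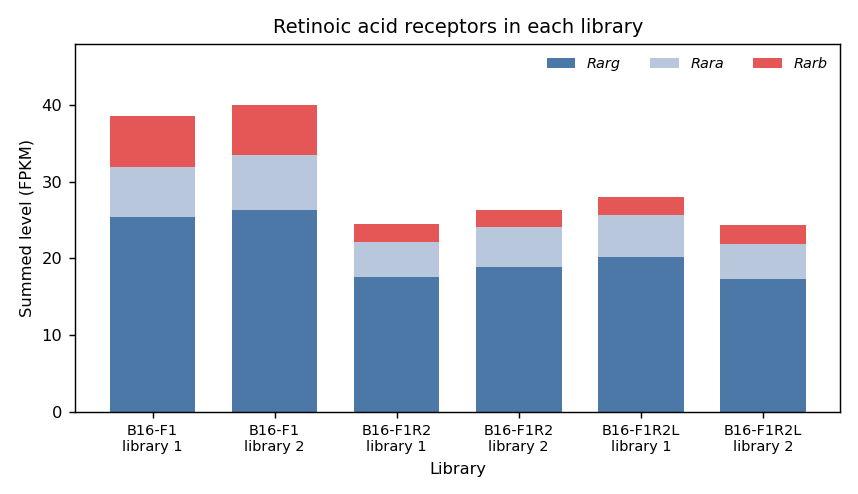
Level in FPKM of Rarg, Rara and Rarb stacked for each of the 6 libraries, with no error bars because each bar is 1 library. The stacks reach 38.6 and 40.02 FPKM in B16-F1 and 24.4 to 28.0 FPKM in the other lines, and the Rarb part at the top is thinner there.

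The receptors are similar in sequence, with coding identities of 71.5% between Rara and Rarb, 72.9% between Rara and Rarg and 69.7% between Rarb and Rarg. The closest 50 coding bases of any 2 of them differ at 4 or more bases. No stretch of 50 bases of Rarb, Rarg or Rxra occurs in a coding transcript of another gene, and 12 of 4480 of Rara do. Most melanocyte markers were lower in the metastatic lines, as the receptors were: their summed level was 14970 to 15007 FPKM in B16-F1, 7909 to 8125 FPKM in B16-F1R2 and 8924 to 8933 FPKM in B16-F1R2L, all 7 of 7 being detected. Mitf was the exception, at 92.3 and 88.7 FPKM in B16-F1, 79.5 and 83.6 FPKM in B16-F1R2 (adjusted p = 0.106, limma) and higher, at 112 and 127 FPKM, in B16-F1R2L (adjusted p = 0.0032, limma). The fibroblast markers summed to 0.962 to 1.19, 18.1 to 18.3 and 4.49 to 4.67 FPKM in the same order. Col1a1 had the highest level of the list in each metastatic library and was at 0.226 and 0.311, 16.8 and 17.1, and 2.81 and 2.19 FPKM. Col1a2 was also higher there, at 0.635 and 0.742, 1.13 and 1.04, and 1.77 and 2.17 FPKM, and both collagens passed the filter through the metastatic lines alone. Of the other fibroblast markers, Pdgfra and Col3a1 stayed at or below 0.144 FPKM and 3 were listed at 0. Their part in the receptor and Crabp2 differences was not tested.

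Retinoic acid receptors bind direct repeats of a 6-base element, and the spacing between its copies is known to matter. The promoter windows of RefSeq (GRCm38.p6), 250 bases before to 50 after each annotated start, were searched on both strands for 2 copies of AGGTCA or AGTTCA or GGGTCA or GGTTCA in the same orientation. With 5 bases between the copies, 32 of 32851 windows (0.0974%) held such a repeat, and with 1 or 2 bases between them 73 (0.222%) and 88 (0.268%) did. The windows covered 7 of the 9 genes, Crabp2 and Aldh1a3 having no entry. Rarb was the only one of these 7 with a repeat at a spacing of 5, at bases 53 to 37 upstream of the start. Of the other genes of the pathway, 48 had a window and Cyp26a1 held one, at bases 32 to 16 upstream on the opposite strand. Both stretches are shown because they hold the repeat, which is in capitals, and each runs 5′ to 3′ along its gene and ends at the base before the start; that of Rarb is chr14:16575477-16575726 on the minus strand and that of Cyp26a1 is chr19:37697688-37697807 on the plus strand.

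Rarb: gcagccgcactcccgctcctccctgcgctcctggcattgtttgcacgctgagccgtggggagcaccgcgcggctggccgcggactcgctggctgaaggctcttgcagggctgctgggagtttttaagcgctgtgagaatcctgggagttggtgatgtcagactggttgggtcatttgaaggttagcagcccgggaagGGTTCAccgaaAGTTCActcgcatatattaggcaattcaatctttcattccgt
Cyp26a1: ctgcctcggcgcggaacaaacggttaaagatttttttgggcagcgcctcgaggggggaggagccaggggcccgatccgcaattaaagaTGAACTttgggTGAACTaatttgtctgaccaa

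The tested genes with this repeat went opposite ways. Of the 31 symbols that hold it, 10 were in the expression table and 2 were tested. Rarb was lower in the metastatic lines, and Blvrb, a biliverdin reductase, was higher, at 35.2 and 36.6 FPKM in B16-F1, 71.8 and 62.6 FPKM in B16-F1R2, and 77.8 and 72.6 FPKM in B16-F1R2L. Cyp26a1, the hydroxylase that retinoic acid induces in many cells, was at 0.0565 FPKM or below in B16-F1 and B16-F1R2 and reached 0.11 FPKM in 1 B16-F1R2L library. A match is a description of these letters and not evidence of binding.

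The enzyme that removes retinoic acid was higher where Crabp2 was. Cyp26b1, which hydroxylates retinoic acid and lies at chr6:84521938-84543740 on the minus strand (mm9), was at 1.67 and 1.09 FPKM in B16-F1, 2.58 and 2.602 FPKM in B16-F1R2, and 3.04 and 3.83 FPKM in B16-F1R2L. The 3 lines did not overlap, and the B16-F1 libraries were the farthest apart in relative terms. The log2 difference from B16-F1 was 0.89 ± 0.21 (SE) in B16-F1R2, and in B16-F1R2L it was 1.27 (95% confidence interval 0.76 to 1.78, adjusted p = 0.0028, limma). Under quantile normalization the values for Cyp26b1 were smaller, 0.55 in B16-F1R2 and 0.79 in B16-F1R2L. Between the metastatic lines the difference was 0.38 (95% confidence interval -0.13 to 0.89, adjusted p = 0.230, limma), which did not pass the test. The third member of the family, Cyp26c1, was listed at 0 in 5 libraries and at 0.0858 FPKM in the other.

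Aldh1a3, an enzyme that makes retinoic acid, and Stra6, the receptor for retinol uptake, were near the lower end of what was measured. Aldh1a3 (chr7:73535778-73572403, minus strand, mm9) was at 0.460 and 0.439 FPKM in B16-F1, 0.849 and 0.985 FPKM in B16-F1R2, and 0.867 and 1.02 FPKM in B16-F1R2L, which is about 19 to 51 reads. B16-F1 lay below both other lines without overlap. It was under the filter, and in a fit of 16483 genes without it the log2 difference between B16-F1R2L and B16-F1 was 0.92 (adjusted p = 0.012, limma). Stra6 (chr9:57911595-58001803, plus strand, mm9) was listed at 0 in 4 libraries and at 0.0689 and 0.0332 FPKM in B16-F1 replicate 1 and B16-F1R2 replicate 1, about 3 reads or fewer, so no difference was detectable at this depth.

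The order of the 9 genes differed between B16-F1 and the other lines. In B16-F1 the levels ran from Rxra through Rarg, Rara, Rarb, Crabp2, Cyp26b1, Aldh1a3 and Stra6 to Crabp1, with the libraries of Rara and Rarb overlapping. In both metastatic lines Crabp2 came first, above Rxra, Rarg and Rara, and Cyp26b1 came before Rarb, although in B16-F1R2 the last pair lay close, at 2.59 ± 0.014 and 2.32 ± 0.052 FPKM (SD, n = 2). Of the 6 tested genes, 2 were higher and 4 were lower in B16-F1R2L than in B16-F1, where 29.5% and 27.1% of all tested genes were, and 1 was lower and 0 were higher by limma in B16-F1R2L against B16-F1R2, where 10.5% and 12.1% of all tested genes were. At an unadjusted p under 0.05 the number higher was also 0. Against B16-F1, Crabp2 is among the 2 higher in B16-F1R2L. The B16-F1 values are among those for which the genes were chosen, so these counts are not independent of the choice. The lower call between the metastatic lines is that of Crabp2, which is not independent of the choice of the gene and was lost under 8 of 16 alternatives. Because only genes that pass the filter can be called, this count says nothing of the 3 others.

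The rest of the pathway was described from a list of 71 genes in 6 groups by textbook role, of which 70 were in the table and 42 were tested. In B16-F1R2 against B16-F1, 14 were higher and 12 were lower, with a median log2 difference of -0.04 against 0.0046 over all tested genes, and the shares of 33.3% and 28.6% stood beside 28.2% and 27.2% over all genes. In B16-F1R2L against B16-F1, 15 were higher and 12 were lower, with a median of -0.03 against 0.02, and the shares of 35.7% and 28.6% stood beside 29.5% and 27.1%. In B16-F1R2L against B16-F1R2, 6 were higher and 2 were lower, 14.3% and 4.76%, beside 12.1% and 10.5%. Of the higher calls against B16-F1, 6 in either line are of genes under 1 FPKM in both B16-F1 libraries, which passed the filter through 1 or both of the metastatic lines: Rlbp1, Aldh1a1, Tgm2, Cebpe, Icam1 and Angptl4.

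Retinoid carriers other than Crabp2 and Fabp5 were at low levels. Of 8 listed binding and transport genes, 2 were tested: Fabp5, which was higher in both metastatic lines, and Rlbp1, the retinaldehyde binding protein of the visual cycle. Rlbp1 was at 0.532 and 0.276 FPKM in B16-F1, 2.02 and 2.11 FPKM in B16-F1R2, and 2.22 and 1.83 FPKM in B16-F1R2L. It passed the filter through the metastatic lines alone, so these values are a description. Rbp4, the retinol carrier of plasma, was listed at 0 in all 6 libraries.

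Of 23 genes of retinol and retinaldehyde metabolism, 11 were tested. In B16-F1R2, 4 were higher and 2 were lower than in B16-F1, and in B16-F1R2L 4 were higher and 3 were lower. These shares were 36.4% and 18.2%, then 36.4% and 27.3%, beside 28.2% and 27.2%, then 29.5% and 27.1%, over all tested genes. Aldh1a1, a retinaldehyde dehydrogenase that makes retinoic acid as ALDH1A3 does, was listed at 0 in both B16-F1 libraries and was at 2.14 and 2.32 FPKM in B16-F1R2 and 1.80 and 2.10 FPKM in B16-F1R2L. It, too, passed the filter through the metastatic lines alone. The third enzyme of the kind, Aldh1a2, was listed at 0 throughout. Adh7 and Adh1, alcohol dehydrogenases that can oxidize retinol and were named after their values were seen, were both higher in the metastatic lines. Adh7 was at 1.80 and 2.29 FPKM in B16-F1 and between 15.3 and 16.3 FPKM in the metastatic lines (log2 difference 2.86 in B16-F1R2, adjusted p = 7.59e-06, limma). Adh1 was at 0.892 and 1.30 FPKM in B16-F1 and between 6.37 and 7.48 FPKM in the metastatic lines and, with 1 B16-F1 library under 1 FPKM, also needed a metastatic library to pass the filter.

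The retinol dehydrogenases differed less and in both directions. Rdh10, which oxidizes retinol in embryonic retinoic acid synthesis, was at 2.34 and 2.38 FPKM in B16-F1, 2.93 and 3.87 FPKM in B16-F1R2, and 2.82 and 2.64 FPKM in B16-F1R2L. Its difference passed the test in B16-F1R2 (log2 difference 0.50, adjusted p = 0.0287, limma). The call was lost under quantile normalization (log2 difference 0.27, adjusted p = 0.163, limma) and with no filter (adjusted p = 0.0584, limma). It was also lost without either B16-F1 library (log2 difference 0.48 and 0.51) or B16-F1R2 replicate 2 (0.30). Dhrs3, which reduces retinaldehyde back to retinol, was at 3.72 and 5.20 FPKM in B16-F1, 4.25 and 4.31 FPKM in B16-F1R2, and 2.64 and 2.22 FPKM in B16-F1R2L. Its level fell in B16-F1R2L against B16-F1 (log2 difference -0.84, adjusted p = 0.0068, limma), and B16-F1R2 overlapped B16-F1.

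**Figure D5:**
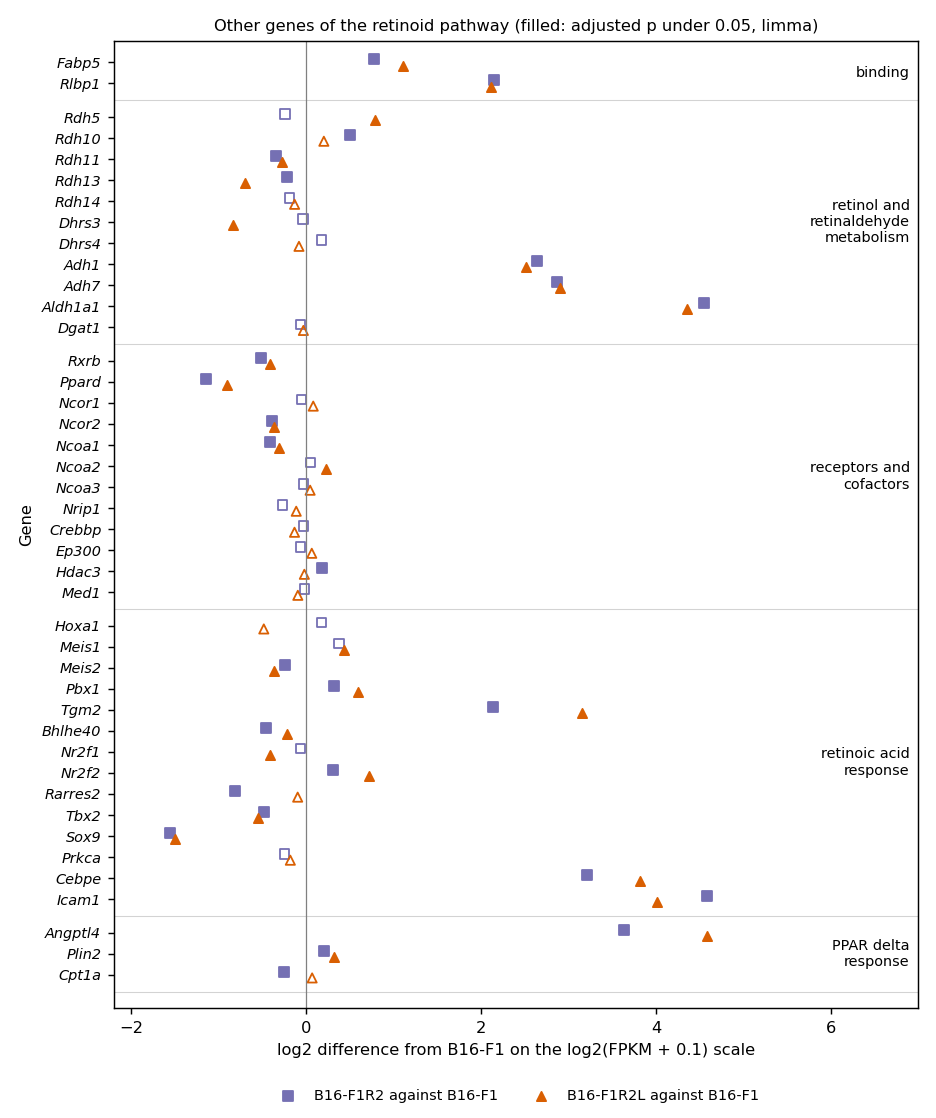
Log2 difference from B16-F1 on the log2(FPKM + 0.1) scale (horizontal axis) for the 42 tested genes of the pathway list, grouped by role; squares are B16-F1R2, triangles B16-F1R2L, and filled symbols passed the limma test at an adjusted p under 0.05. In the receptor and cofactor group 4 of 12 genes were lower and 1 was higher in each line, whereas Rlbp1, Aldh1a1, Adh1, Adh7, Tgm2, Cebpe, Icam1 and Angptl4 lie above 2 in both lines, of which Aldh1a1, Cebpe and Angptl4 were listed at 0 in B16-F1 and Icam1 in 1 of its libraries, so that the size of their values depends on the pseudocount.

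Among 12 tested receptors and cofactors outside the 9 genes, 4 were lower and 1 was higher in B16-F1R2, and the same numbers held in B16-F1R2L. The shares of 33.3% and 8.33% stood beside 27.2% and 28.2% over all tested genes in the first comparison and 27.1% and 29.5% in the second. Rxrb, the retinoid X receptor beta, followed Rxra: it was at 29.2 and 27.3 FPKM in B16-F1, 20.5 and 18.9 FPKM in B16-F1R2, and 22.1 and 20.4 FPKM in B16-F1R2L. It fell by 0.52 on the log2 scale in B16-F1R2 (adjusted p = 0.0012, limma) and by 0.41 in B16-F1R2L (adjusted p = 0.0032, limma). Rxrg, the remaining member of that family, did not exceed 0.0529 FPKM.

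Of 20 listed genes known to respond to retinoic acid, 14 were tested. In B16-F1R2, 5 were higher and 5 were lower than in B16-F1, and in B16-F1R2L 6 were higher and 5 were lower. These shares were 35.7% and 35.7%, then 42.9% and 35.7%, where 28.2% and 27.2%, then 29.5% and 27.1%, of all tested genes were higher and lower. Tgm2, the tissue transglutaminase, was at 0.554 and 0.559 FPKM in B16-F1, 2.73 and 2.84 FPKM in B16-F1R2, and 6.24 and 5.29 FPKM in B16-F1R2L. The libraries of no 2 lines overlapped, with log2 differences from B16-F1 of 2.14 and 3.15, which fell as low as 1.28 and 2.12 under the alternatives. Tgm2, Icam1 and Cebpe were under 1 FPKM in both B16-F1 libraries and passed the filter through the metastatic lines alone, Cebpe through B16-F1R2L only, so their calls are no support for a rise.

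Icam1, an adhesion molecule, was at 0.0690 FPKM in 1 B16-F1 library and listed at 0 in the other, and was at 2.73 and 3.31 FPKM in B16-F1R2 and 2.02 and 1.96 FPKM in B16-F1R2L, above B16-F1 in every library. Cebpe, a transcription factor of granulocyte maturation named after its values were seen, was listed at 0 in B16-F1 and lay between 0.695 and 1.35 FPKM in the metastatic lines. Sox9, a transcription factor of neural crest and cartilage named on the same terms, was lower in both metastatic lines, at 3.40 and 3.33 FPKM in B16-F1, 0.930 and 1.24 FPKM in B16-F1R2, and 1.07 and 1.17 FPKM in B16-F1R2L. Its log2 difference was -1.56 in B16-F1R2 (adjusted p = 4.40e-04, limma).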

How the data were processed

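The authors purified polyadenylated RNA, prepared strand-marking TruSeq libraries and sequenced single-end reads of 50 bases, which were aligned to NCBI37/mm9 with TopHat2 2.0.10, Bowtie 1.0.0 and SAMtools 0.1.1.9, with 2 mismatches allowed. The authors deposited FPKM per gene and library, and the submitters' processing notes name Cuffnorm and DESeq2. The gene annotation and the strand setting of the counting are not given in the sources used here. Values can lie below what 1 read is worth, and genes at 0 are called listed at 0.

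From the deposited FPKM, log2(FPKM + 0.1) was computed for the 11379 genes that reached 1 FPKM in 2 or more libraries. A fold on this scale understates the change of low genes. Differences between the 3 lines were tested by limma 3.58.1 under R 4.3.3 (eBayes with a trend, all 6 libraries, no block), with Benjamini-Hochberg adjustment over all tested genes and a threshold of 0.05. FPKM are not counts, so no count model was used. An exact permutation test of 2 against 2 libraries cannot go below 0.333. The fit was tested on simulated data. Alternatives changed the pseudocount, filter, scaling, spread estimate, libraries and replicate block.

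The 9 genes and the gene lists were chosen with earlier results of these data known. The text names all 9, the tested pathway genes with the largest differences or set roles, and genes most like Crabp2; results of some genes under this rule are not reported here. Positions and 50-base stretches came from the NCBIM37 assembly (GENCODE), the assembly of mm9, and promoter windows from RefSeq (GRCm38.p6), with Biopython 1.88. Reads per library were estimated as the median of FPKM times length among genes within a range set by hand to hold the lowest step. The estimate depends on that range. Counting intervals were left out because read counts were not used here.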

Additional observations from a re-analysis of the deposited data

Results flagged for a closer look

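In 9 genes, 1 of the 6 tested of the 9 retinoid genes and 8 of the 42 tested pathway genes, the change from B16-F1 differed between the metastatic lines by a test of the difference itself, which here equals the comparison of B16-F1R2L with B16-F1R2 because both changes share the B16-F1 libraries. Over all tested genes 12.1% were higher and 10.5% lower in that comparison. Crabp2 is among them with a log2 difference between the changes of -0.31, but its B16-F1R2 values are those for which it was chosen, so that test is not independent of the choice. The other carrier, Fabp5, had risen more in B16-F1R2L, by 0.33 (adjusted p = 0.0103, limma), a call lost without B16-F1R2L replicate 2 (adjusted p = 0.0573).

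Tgm2 differed by 1.02 (adjusted p = 0.00672, limma) and was at 0.0503 without B16-F1R2 replicate 1. Nr2f2, an orphan receptor that retinoic acid induces, differed by 0.41 (0.0337) and was at 6.05 and 6.26 FPKM in B16-F1, 6.97 and 8.39 FPKM in B16-F1R2, and 9.93 and 10.4 FPKM in B16-F1R2L. Rdh5, a retinol dehydrogenase of the visual cycle, differed by 1.02 (0.0272) and was at 1.11 and 1.16, 0.749 and 1.18, and 2.21 and 1.85 FPKM in the same order.

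Rdh13, a mitochondrial enzyme of the retinol dehydrogenase family, differed by -0.48 (0.0111, limma) and was at 13.4 and 15.3, 12.1 and 12.5, and 8.82 and 8.74 FPKM. Dhrs3 differed by -0.80 (0.0247), Ppard by 0.24 (0.0269) and Cpt1a by 0.32 (0.0178). Each of these 9 calls was lost without at least 1 library. Adjusted p without 1 library reached 0.144 for Nr2f2, 0.096 for Rdh5, 0.0641 for Rdh13, 0.120 for Dhrs3, 0.119 for Ppard and 0.0929 for Cpt1a. Rescaling the libraries to the same sum moved the median of all genes in this comparison from 0.02 to 0.13, so values of that size are relative to the scaling.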

How the results depend on the processing

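Of 908 values of 24 named genes under 16 alternatives, 811 kept direction and side of the threshold, or moved by less than the spread where untested, 80 lost the call, 8 turned sign and 9 moved without a test. Genes outside the 9 entered only in comparisons where the main fit called them, so they could lose a call but not gain one. In B16-F1R2L against B16-F1R2 the log2 difference was -0.061 for Rara and -0.12 for Rarb under quantile normalization and 0.081 for Rxra after rescaling to equal sums, and without 1 library it ran from -0.072 to 0.20 for Rara, -0.0058 to 0.13 for Rarb and -0.080 to 0.14 for Rarg. Rescaling took the median difference over all genes from 0.02 to 0.13 there and to 0.12 in B16-F1R2L against B16-F1, and the share of calls that were higher from 53.7% to 81.0% and from 52.1% to 66.6%. At 5 FPKM, 7 pathway genes were higher in either metastatic line than in B16-F1, and with a log2 difference of at least 1 required, 8 were higher and 2 lower in B16-F1R2 and 9 were higher and 1 lower in B16-F1R2L. In B16-F1R2L against B16-F1R2, the 6 higher pathway genes became 3 with only 4 libraries fitted and 2 at a log2 difference of at least 1, and 1 to 5 without 1 library; the 2 lower became 4 at a pseudocount of 1 or with median-of-ratios scaling, 1 at 5 FPKM or with no filter, 0 at a log2 difference of at least 1, and 0 to 2 without 1 library. Of the 9 genes, against B16-F1 the B16-F1R2L libraries had 1 higher at 5 FPKM and 1 lower at a log2 difference of at least 1; the call on Crabp2 between the metastatic lines became 0 calls with no filter, after rescaling, without a trend, under the replicate block, at a log2 difference of at least 1, and 0 to 1 without 1 library. With the replicate number as a block (replicate block), pathway counts against B16-F1 were 14 higher and 11 lower for B16-F1R2, then 13 higher and 13 lower for B16-F1R2L, and 6 and 3 between the metastatic lines, and Crabp2 there was at an adjusted p of 0.0569. Deviations of same-numbered libraries correlated at 0.05, -0.10 and 0.08. With 1 difference per line, this cannot tell whether same-numbered libraries shared a culture or preparation. At the estimated depth, differences of genes under about 1 FPKM rest on few reads.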
